A study of Tupaia belangeri with 15 samples.

Results

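The genes described here are 10 components of vascular endothelial growth factor (VEGF) and hypoxia signalling in the retina of the tree shrew (TS, Tupaia belangeri): the ligands VEGFA, VEGFB and VEGFC, the receptors FLT1 and KDR, the transcription factor subunits HIF1A, EPAS1 and ARNT, and the prolyl hydroxylases EGLN1 and EGLN3. They were chosen for their place in the pathway and matched by gene name, 10 of 83605 features, with each name carried by a single feature. The study sequenced RNA from single nuclei of 15 retinas, 5 each from infant, mature and senile TSs, with 3′ libraries in which each RNA molecule carries a unique molecular identifier (UMI). Retinas are called Infancy 1 to 5, Mature 1 to 5 and Senile 1 to 5, after the labels, and the labels give no treatment. Senile animals came from another institute than the infant and mature animals, so the senile stage and the source of the animals cannot be told apart. Each stage had 5 animals, and the retina is the unit of replication throughout.

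VEGFA is the main growth signal for blood vessels. It acts through KDR, the signalling receptor of endothelial cells, while FLT1 binds it tightly and signals weakly, so that FLT1 can act as a decoy. When oxygen is plentiful, the EGLN enzymes hydroxylate the alpha subunits HIF1A and EPAS1 (HIF-2α), which are then degraded. When oxygen is low, the alpha subunits persist, pair with ARNT and switch on targets such as VEGFA and EGLN3. This control acts on the protein, which RNA counts do not measure. In the mammalian retina, VEGFA from glia and neurons guides the vessels that supply the inner layers.

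The libraries held 13429873 to 58734300 UMIs, with a median of 1461 to 5611 UMIs per barcode. After filtering and removal of called doublets, 111825 nuclei were kept, and 89885 of them lay in clusters that could be named from marker genes. The classes below stand for clusters that resembled each cell type by its markers, not for separately identified cells. Values per retina were available for 9 classes: cones, rods, bipolar cells (BCs), horizontal cells (HCs), amacrine cells (ACs), retinal ganglion cells (RGCs), Müller glia, astrocytes and microglia. A level is given in CPM, the gene's UMIs for every 1000000 UMIs of a class in a retina, and as mean ± SD over retinas. A retina counted for a class if it held at least 10 of its nuclei (15 retinas, 14 for rods). Libraries stood apart in astrocytes. In Mature 4 the summed level of the 7 astrocyte markers was 1152 CPM against 4488 to 10057 CPM in the other 14 retinas, and the lens crystallin gene CRYBB2 reached 8444 CPM. It was also high in the astrocytes of Infancy 4 (11721 CPM) and Infancy 5 (2182 CPM), the retinas with the next lowest marker sums (5181 and 4488 CPM), and its median over the retinas other than Mature 4 was 8.64 CPM. The comparisons of astrocytes with other classes for VEGFA, VEGFC and EPAS1, and selected changes with stage, are given without Mature 4 as well. They are also given without all 3 of these retinas, an alternative chosen after seeing the data. The 3 are those with more than 1000 CPM of CRYBB2 in astrocytes. Of the Müller clusters, 1 came almost wholly from Mature 4 (562 of 563 nuclei, in a retina with 685 Müller nuclei). Another came wholly from Senile 3 (236 nuclei, in a retina with 289 Müller nuclei). Of the cone clusters, 1 came almost wholly from Senile 3 (354 of 358 nuclei, in a retina with 437 cone nuclei). Pairs of libraries shared between 0.094% and 0.42% of the barcodes of the smaller library.

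Over all 119765 barcodes that passed the filter, HIF1A had the most UMIs, 80948, followed by VEGFA with 23066, EPAS1 with 22462, KDR with 16715, FLT1 with 15967 and VEGFC with 12364. EGLN3 had 6706 UMIs, ARNT 1782 and VEGFB 1197. EGLN1 is listed at 0 in all 15 retinas, while an antisense feature of its locus had 149 UMIs. Glycolytic genes that every cell uses, such as ENO1, GPI and TPI1, are listed at 0 as well, so that a gene at 0 in these matrices may not have been counted, and nothing is read from the 0 of EGLN1. These 3′ counts depend on how well each gene's 3′ end is annotated, so the level of a gene is compared here between classes and retinas, and a ratio of 2 genes only between classes.

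**Figure D1:**
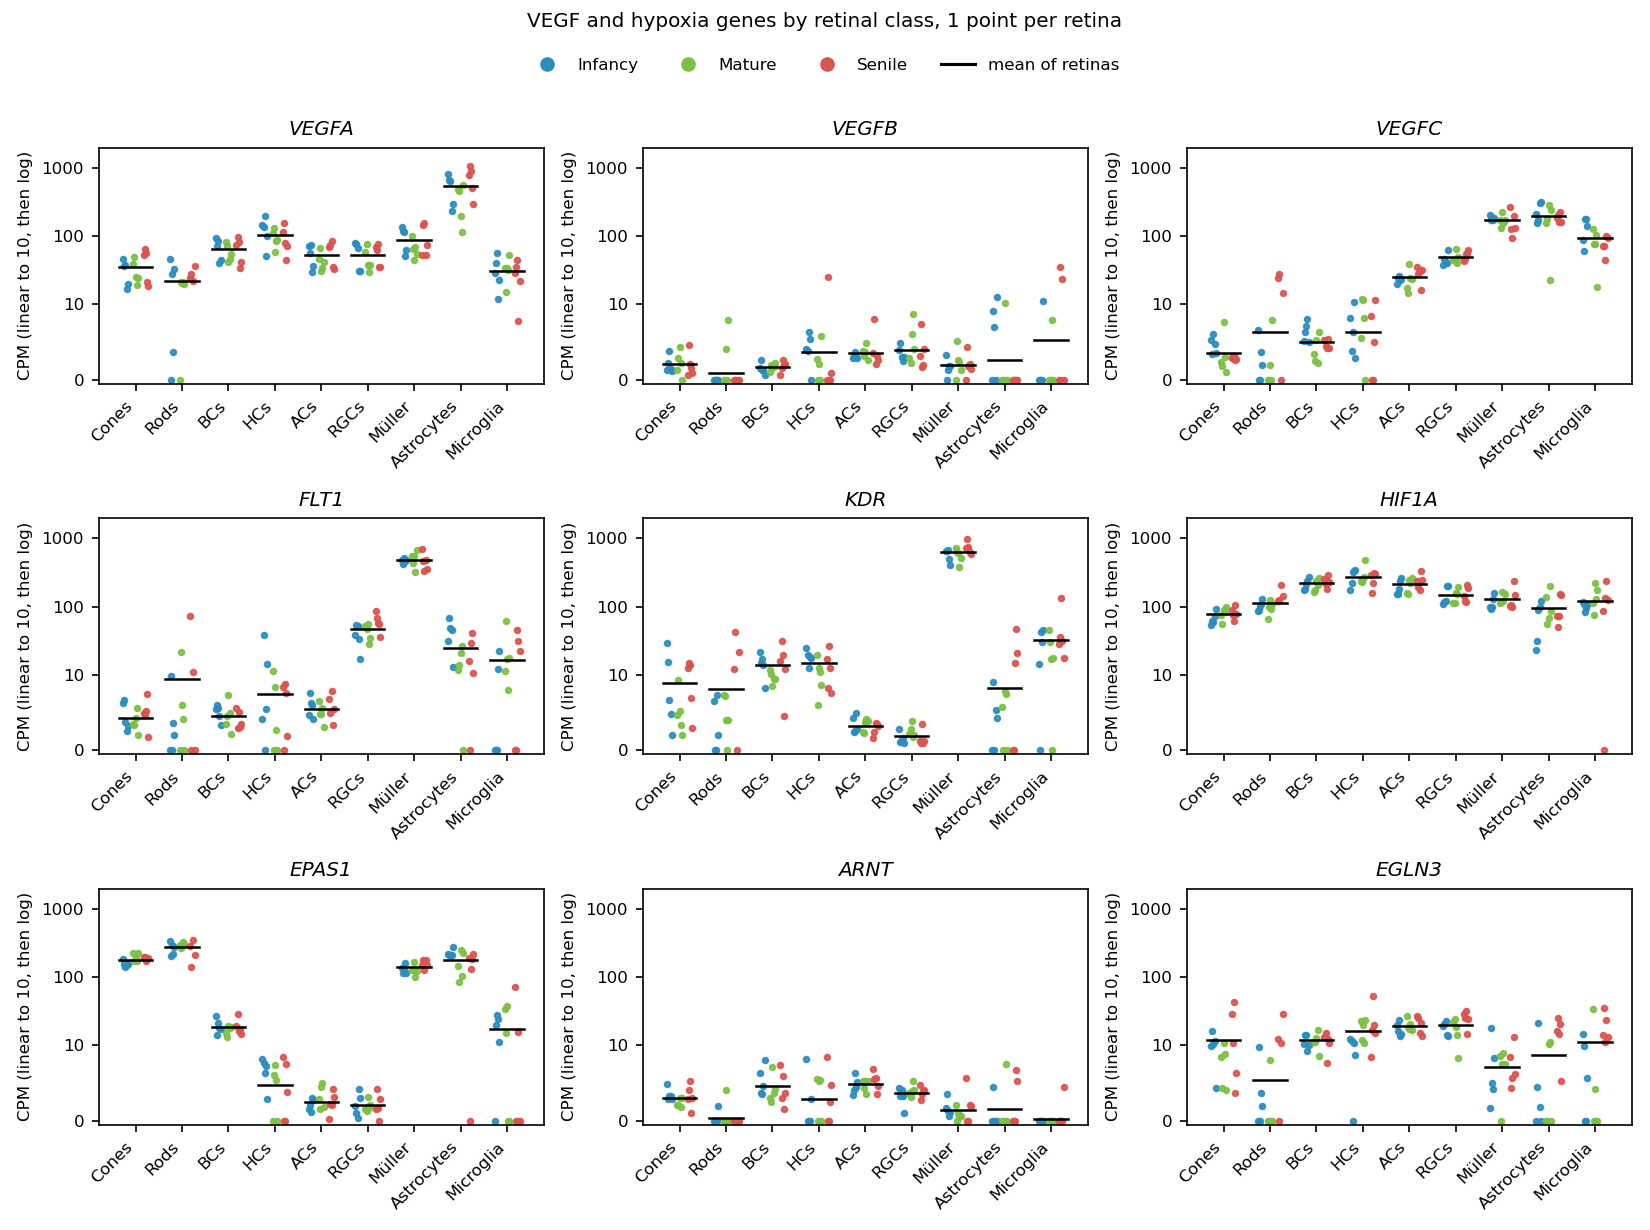
Level of each detected member (y axis, CPM, linear to 10 and logarithmic above) in the 9 classes (x axis), with 1 point per retina coloured by stage and a bar at the mean over retinas. VEGFA stands highest in astrocytes, FLT1 and KDR in Müller glia, HIF1A in HCs, and EPAS1 in rods, cones, astrocytes and Müller glia.

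To ask which cells carry the ligands, the classes were ordered by their mean log2(CPM + 1) and neighbours in that order were compared within retinas. Among the 9 classes VEGFA was highest in astrocytes, at 535 ± 276 CPM (116 to 1055, n = 15). This was 5.11 times the mean of HCs, the next class, at 105 ± 42.8 CPM. In the infant retinas astrocyte VEGFA was 805, 660.0, 639.9, 237 and 294 CPM (Infancy 1 to 5). In the mature retinas it was 498, 463, 195, 116 and 572 CPM (Mature 1 to 5). In the senile retinas it was 786, 1055, 899, 505 and 301 CPM (Senile 1 to 5). The 3 stages overlapped, and the value of 116 CPM belongs to Mature 4, the retina with few astrocyte markers. Astrocytes exceeded HCs in 15 of 15 retinas, by 2.23 on the log2(CPM + 1) scale (SD of the differences 0.77, adjusted p = 0.000628, exact sign-flip permutation test over retinas, Benjamini-Hochberg over 72 neighbouring pairs of all members). The unadjusted p was 6.1e-05, the smallest that 15 retinas can give. Without Mature 4 the astrocyte mean was 565 ± 260 CPM (n = 14) and the difference 2.36. Without Infancy 4, Infancy 5 and Mature 4 they were 615 ± 247 CPM (n = 12) and 2.44 (adjusted p = 0.00439). With each nucleus gated by its own markers the difference was 0.51 (adjusted p = 0.0403). Astrocytes held 0.949% of the UMIs of the 9 classes and 7.39% of those of VEGFA.

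In HCs, the interneurons that feed back onto photoreceptors, VEGFA ranged from 45.2 to 196 CPM. Their difference from Müller glia, at 86.5 ± 38.3 CPM, was 0.28 on the log2 scale (adjusted p = 0.171), and it passed without Senile 3 (0.37, adjusted p = 0.0165) and with gated nuclei (0.40, adjusted p = 0.00592). Müller glia exceeded BCs, at 63.9 ± 21.5 CPM, in 13 of 15 retinas (0.39, adjusted p = 0.0117), and BCs exceeded RGCs, at 53.5 ± 20.0 CPM, in 12 of 15 (0.27, adjusted p = 0.0098). RGCs and ACs differed by 0.03 (adjusted p = 0.837). ACs, at 52.1 ± 19.1 CPM, exceeded cones, at 35.2 ± 15.7 CPM, in 15 of 15 retinas (0.60, adjusted p = 0.000628). Cones, microglia (31.1 ± 13.9 CPM) and rods (21.6 ± 13.2 CPM) formed the low end, where neighbouring pairs did not pass the threshold. By number of UMIs, ACs held 33.3% of VEGFA and 38.2% of all UMIs of the 9 classes.

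VEGFC, which signals through FLT4 and KDR and is best known for lymphatic growth, followed another order. It was highest in the macroglia, with 198 ± 72.5 CPM in astrocytes (22.5 to 315) and 172 ± 42.5 CPM in Müller glia (93.7 to 266). These neighbours were not separated (log2 difference 0.08, astrocytes higher in 10 of 15 retinas, adjusted p = 0.936). Without Mature 4, whose astrocyte value was 22.5 CPM, astrocytes stood at 210 ± 55.9 CPM and the difference was 0.28 (adjusted p = 0.0925). Without Infancy 4, Infancy 5 and Mature 4 it was 0.19 (adjusted p = 0.316). With gated nuclei Müller glia stood above astrocytes in 15 of 15 retinas (astrocytes minus Müller glia -1.30, adjusted p = 0.000488). Müller glia exceeded microglia, at 95.3 ± 45.9 CPM, in 13 of 15 retinas (0.99, adjusted p = 0.00195), and microglia exceeded RGCs, at 49.2 ± 9.16 CPM, in 13 of 15 (0.78, adjusted p = 0.0224). The last call was lost with gated nuclei (0.53, adjusted p = 0.0922) and with doublets kept (0.54, adjusted p = 0.0806).

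Müller VEGFC was 204, 171, 176, 172 and 182 CPM in Infancy 1 to 5. It was 174, 133, 228, 155 and 170.1 CPM in Mature 1 to 5 and 266, 126, 93.7, 197 and 132 CPM in Senile 1 to 5. The senile retinas held both the lowest and the highest value, and the stages overlapped. Among neurons, RGCs exceeded ACs, at 25.1 ± 6.97 CPM, in 15 of 15 retinas (0.97, adjusted p = 0.000628), and ACs exceeded BCs, at 5.01 ± 1.58 CPM, in 15 of 15 (2.12, or 5.01 times in mean CPM). HCs (6.28 CPM), BCs and cones (3.55 CPM) were at the low end. VEGFB, a ligand of FLT1, was low in every class, with means of at most 5.21 CPM (microglia), 3.98 CPM in RGCs and 3.54 CPM in ACs. The microglia mean rested on 7 UMIs, with values of up to 35.4 CPM in a single retina. No neighbouring pair of classes differed in VEGFB past an adjusted p of 0.05.

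The receptors are known from endothelial cells, and here both were highest, among the 9 classes, in Müller glia, the radial glia that span the retina. Müller FLT1 was 485 ± 110 CPM (323 to 700), 10.2 times the mean of RGCs, the next class, and Müller KDR was 629 ± 145 CPM (377 to 974), 19.2 times the mean of microglia.

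Müller FLT1 in Infancy 1 to 5 was 476, 426, 509.7, 469 and 490.0 CPM. It was 549, 441, 558, 323 and 684 CPM in Mature 1 to 5 and 699.7, 465, 336, 489.8 and 352 CPM in Senile 1 to 5. The infant retinas lay inside the wider range of the other stages. Müller glia exceeded RGCs in 15 of 15 retinas (log2 difference 3.38, SD 0.57, adjusted p = 0.000628, exact sign-flip permutation test). Müller KDR was 649, 655, 675, 497 and 413 CPM in Infancy 1 to 5. It was 729.8, 626, 613, 377 and 525 CPM in Mature 1 to 5 and 728, 974, 744, 634 and 598 CPM in Senile 1 to 5. The 3 highest values were 2 senile retinas and Mature 1, and all stages overlapped. Müller glia exceeded microglia, at 32.7 ± 31.8 CPM, in 15 of 15 retinas (log2 difference 4.92, SD 1.81, adjusted p = 0.000628). Without Mature 4, Müller FLT1 was 496 ± 104 CPM and KDR 647 ± 132 CPM. Müller glia held 5.12% of the UMIs of the 9 classes, 70.9% of those of FLT1 and 82.0% of those of KDR.

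Within Müller glia, 54.5% of 6495 nuclei had a FLT1 UMI, 63.2% a KDR UMI, 37.3% both and 80.4% either, at a median of 1816 UMIs per nucleus. In ACs, which were deeper at a median of 2996 UMIs, the shares were 1.76% for FLT1 and 1.21% for KDR. Of the genes that define endothelial cells, CLDN5, the tight junction gene, was at 1.89 CPM over all Müller nuclei, CDH5, the endothelial cadherin, at 0.126 CPM, PECAM1 at 14.3 CPM (41.5 CPM in endothelial-like nuclei) and PTPRB at 16.1 CPM (1506 CPM in endothelial-like nuclei). All 12 endothelial markers had some UMIs there, and their summed level was 26.2 to 49.3 CPM in infant, 28.2 to 67.0 CPM in mature and 27.6 to 65.6 CPM in senile retinas.

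RGCs were next to Müller glia in FLT1 and low in KDR. RGC FLT1 was 47.6 ± 17.2 CPM, with 37.6, 54.1, 51.0, 33.4 and 16.8 CPM in Infancy 1 to 5. It was 52.2, 46.8, 56.4, 27.9 and 35.0 CPM in Mature 1 to 5 and 86.0, 68.1, 57.0, 56.3 and 35.8 CPM in Senile 1 to 5. The 3 highest values were senile, and the stages overlapped. RGCs exceeded astrocytes, at 24.9 ± 19.0 CPM, in 13 of 15 retinas (log2 difference 1.46, adjusted p = 0.010, and 1.56 without Mature 4, adjusted p = 0.0128). A FLT1 UMI was found in 22.9% of 5269 RGC nuclei, against 1.76% of AC nuclei at a lower depth (median 5229 and 2996 UMIs). RGC KDR was at 1.89 ± 0.949 CPM, and 1.21% of RGC nuclei had a KDR UMI, the share also seen in ACs. RGCs had 26.7 FLT1 UMIs per KDR UMI, with FLT1 above KDR in 15 of 15 retinas, while Müller glia had 0.840 (2 of 15 retinas) and BCs 0.382 (0 of 15).

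Below Müller glia, KDR levels were low. HCs had 14.7 CPM, BCs 13.9 CPM and cones 8.93 CPM, with BCs above cones in 12 of 15 retinas (log2 difference 0.78, adjusted p = 0.0113). ACs, at 3.19 CPM, exceeded RGCs in 13 of 15 retinas (0.57, adjusted p = 0.00479). Markers of Müller glia summed in BCs to medians of 678, 571 and 542 CPM in infant, mature and senile retinas. In cones the medians were 104, 98.4 and 122 CPM. Their part in the KDR difference between BCs and cones was not tested. The FLT1 levels of rods, HCs, ACs, BCs and cones were 4.33 to 9.39 CPM. The rod mean, the highest of these, rested on 17 UMIs, with values of up to 73.6 CPM in a single retina. ACs over BCs was 0.24 (adjusted p = 0.0499), and with gated nuclei BCs stood above ACs (ACs minus BCs -0.55, adjusted p = 0.00896).

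Vascular nuclei were rare. Over all retinas 43 endothelial-like, 57 pericyte-like and 14 nuclei resembling the retinal pigment epithelium (RPE) were named, too few for values per retina, so they were pooled with exact Poisson 95% intervals that cover counting error only. Endothelial-like nuclei had 410 FLT1 UMIs, 4259 CPM (3856 to 4691), and 43 of 43 nuclei had at least 1. Their KDR level was 177 CPM (103 to 283, 17 UMIs in 9 nuclei). EPAS1, known for its high expression in endothelium, was at 1361 CPM (1138 to 1615, 131 UMIs), while HIF1A was at 93.5 CPM (42.7 to 177). VEGFA had 1 UMI and VEGFC 3 UMIs there. Pericyte-like nuclei had KDR at 286 CPM (177 to 437, 21 UMIs in 15 nuclei), EPAS1 at 626 CPM (458 to 835) and 3 FLT1 UMIs. The part of Müller RNA in the KDR level of pericyte-like nuclei was not tested. RPE-like nuclei had VEGFA at 751 CPM (544 to 1012, 43 UMIs), where astrocytes pooled in the same way had 407 CPM (385 to 431). A VEGFA UMI was found in 14 of 14 RPE-like nuclei. Of these nuclei 9 came from Infancy 3, where the level was 796 CPM, 2 from a mature retina (661 CPM) and 3 from senile retinas (672 CPM). RPE-like nuclei had EPAS1 at 349 CPM (213 to 540) and 0 UMIs of FLT1 and KDR, which allows up to 52.4 CPM (3 UMIs).

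The share of endothelial-like nuclei among named nuclei was 0.0499 ± 0.0420% in infant, 0.0358 ± 0.0547% in mature and 0.0659 ± 0.0845% in senile retinas (n = 5 each). It was 0 in 5 retinas and highest, at 0.199%, in Senile 3, where 2507 of 5077 kept nuclei were named. Of all kept nuclei the share was 0.0985% in Senile 3 and 0.108% in Mature 3. The stages did not differ past the threshold (senile minus infant, p = 0.778, 2-sided exact permutation test of 5 against 5 retinas, and adjusted p = 0.778 for each of the 3 pairs).

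The HIF alpha subunits divided the classes differently. HIF1A, the broadly expressed subunit, was found in every class, with its highest mean in HCs at 276 ± 79.5 CPM (156 to 483) and its lowest in cones at 76.6 ± 16.2 CPM. HC HIF1A was 176, 224, 317, 334 and 339 CPM in Infancy 1 to 5. It was 234, 228, 261, 271 and 483 CPM in Mature 1 to 5 and 289, 156, 220.1, 316 and 297 CPM in Senile 1 to 5. The stages overlapped, and Mature 5 was the highest retina. HCs exceeded BCs, at 220 ± 39.9 CPM, in 13 of 15 retinas (log2 difference 0.30, adjusted p = 0.0105). BCs and ACs, at 214 ± 52.5 CPM, were not separated (0.05, adjusted p = 0.313). ACs exceeded RGCs, at 150 ± 37.5 CPM, in 15 of 15 retinas (0.52, adjusted p = 0.000628), and RGCs exceeded Müller glia, at 129 ± 39.2 CPM, in 12 of 15 (0.22, adjusted p = 0.0116), a call lost with gated nuclei (0.074, adjusted p = 0.191) and with more than 500 genes per nucleus (0.19, adjusted p = 0.0542). Müller glia, rods (115 ± 33.3 CPM), microglia (120 ± 57.4 CPM), astrocytes (93.9 ± 49.4 CPM, or 86.4 ± 41.5 CPM without Mature 4) and cones followed, with no neighbouring pair past the threshold. With gated nuclei Müller glia exceeded rods (0.38, adjusted p = 0.0022) and astrocytes exceeded cones (0.69, adjusted p = 0.000488).

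EPAS1 was high in photoreceptors and macroglia and low in inner neurons. Rods had 273 ± 59.7 CPM (139 to 345, n = 14), cones 181 ± 24.0 CPM (143 to 224), astrocytes 178 ± 72.6 CPM (0 to 281) and Müller glia 139 ± 23.6 CPM (101 to 178). BCs had 18.4 ± 4.25 CPM, HCs 4.72 CPM, ACs 2.55 CPM and RGCs 2.05 CPM. Cone EPAS1 was 186, 158, 143, 152 and 156 CPM in Infancy 1 to 5. It was 222, 172, 191, 172 and 224 CPM in Mature 1 to 5 and 194, 198, 171, 182 and 192 CPM in Senile 1 to 5. Infancy 1 lay among the mature and senile values, and the other 4 infant retinas lay below all of them.

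Rods exceeded cones in 13 of 14 retinas (log2 difference 0.57, 1.51 times in mean CPM, adjusted p = 0.00264), and cones exceeded Müller glia in 14 of 15 (0.38, adjusted p = 0.00165). Müller glia and astrocytes differed by 0.10 (adjusted p = 1), by 0.11 without Mature 4 and by 0.27 without Infancy 4, Infancy 5 and Mature 4 (adjusted p = 1 in each). Astrocytes were higher in 13 of 15 retinas, but in Senile 2 no EPAS1 UMI was found in astrocytes. Without Senile 2 astrocytes stood above Müller glia (Müller minus astrocytes -0.43, adjusted p = 0.0213), and with gated nuclei Müller glia above astrocytes (1.43, adjusted p = 0.0022). Astrocytes exceeded BCs in 14 of 15 retinas (2.76, 9.63 times in mean CPM, adjusted p = 0.00586). This difference was 2.78 without Mature 4 (adjusted p = 0.0110) and 2.62 without Infancy 4, Infancy 5 and Mature 4 (adjusted p = 0.0352), and with gated nuclei it was 0.84 and did not pass (adjusted p = 0.154). Without Mature 4 the astrocyte mean of EPAS1 was 183 ± 72.4 CPM. By UMIs, cones held 66.5% of EPAS1 and 18.5% of all UMIs of the classes, and ACs 46.6% of HIF1A and 38.2% of all UMIs. ARNT, the partner of both alpha subunits, was at 4.88 ± 1.01 CPM in ACs, 4.55 CPM in BCs, 3.68 CPM in RGCs and 3.05 CPM in cones, with no neighbouring pair past the threshold.

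EGLN3, the hydroxylase that is itself a HIF target, was highest in RGCs at 20.0 ± 6.25 CPM and ACs at 19.3 ± 4.56 CPM, which differed by 0.02 on the log2 scale (adjusted p = 0.985). HCs had 16.3 ± 11.8 CPM, cones 12.1 ± 10.5 CPM, BCs 11.8 ± 2.54 CPM and Müller glia 7.15 CPM, and no neighbouring pair was past the threshold. Cone EGLN3 was 9.86, 16.3, 10.4, 11.7 and 4.38 CPM in Infancy 1 to 5. It was 8.44, 4.40, 10.9, 8.86 and 4.06 CPM in Mature 1 to 5 and 28.5, 10.8, 42.8, 3.70 and 6.37 CPM in Senile 1 to 5. Senile 1 and Senile 3 were the highest of all 15 retinas, and Senile 4 was the lowest.

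The matrix headers name 2 versions of the counting program, 6.1.2 in 7 retinas (Infancy 1 to 3, Mature 1 and 2, Senile 1 and 2) and 7.0.1 in the other 8. The levels of some members differed between these 2 sets. Median UMIs per barcode were 1461 to 3068 in the older and 2268 to 5611 in the newer set. RGCs were 7.21, 8.86 and 7.18% of named nuclei in Infancy 1 to 3, and 3.02 and 1.30% in Infancy 4 and 5. Version, depth and other differences between the sets cannot be told apart. VEGFA over all kept nuclei was 71.4 ± 8.23 CPM (56.7 to 81.0) in the older and 45.4 ± 19.1 CPM (34.2 to 91.4) in the newer set. In astrocytes the means were 701 and 390 CPM, but all 3 retinas with over 1000 CPM of CRYBB2 in astrocytes were of the newer set. Without them its mean was 494 ± 273 CPM (n = 5). Senile 4, which stays in that mean, had 168 CPM of CRYBB2 in astrocytes. In HCs the means were 142 and 72.4 CPM. KDR in Müller glia was 719 ± 119 CPM in the older and 550.1 ± 121 CPM in the newer set, and in cones 13.2 ± 8.13 and 5.16 ± 3.97 CPM. EPAS1 was 182 and 180.0 CPM in cones and 138 and 140 CPM in Müller glia, differences below the SD of either set. HIF1A moved the other way, from 142 ± 20.4 CPM in the older to 204 ± 45.8 CPM (117 to 264) in the newer set. Senile 3, of the newer set, had the highest VEGFA (91.4 CPM) and the lowest HIF1A (117 CPM) over all kept nuclei. The 5 class differences that follow had the same direction within each version: astrocytes over HCs in VEGFA by 2.27 (older) and 2.20 (newer), Müller glia over RGCs in FLT1 by 3.17 and 3.56, Müller glia over microglia in KDR by 5.20 and 4.67, HCs over BCs in HIF1A by 0.23 and 0.36, and rods over cones in EPAS1 by 0.65 and 0.52. The part of the version in the levels was not tested, and it was a term in every test of stage. In sums over a whole retina, fewer cells of a type and less RNA per cell cannot be told apart.

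Within classes, single clusters differed widely. These clusters were chosen after their values were seen and are described without a test. VEGFC was concentrated in few AC clusters. A cluster of 401 AC nuclei led by CHST9 and OLFM3 had 363 ± 94.4 CPM of VEGFC, above that of astrocytes, against 21.5 CPM in the rest of the ACs, and was higher in 15 of 15 retinas. Another cluster of 1171 nuclei led by ABCA13, CALN1 and GFRA1 had 263 ± 116 CPM against 19.8 CPM in the rest, again in 15 of 15 retinas. Among RGCs, a cluster of 1084 nuclei with LAMA4 and PTCHD4 among its leading genes had 156 ± 33.6 CPM of VEGFC against 23.7 CPM in the rest (14 of 14 retinas).

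HIF1A was highest in a cluster of 390 AC nuclei led by CCBE1 and RIT2, at 766 ± 322 CPM against 209 CPM in the rest of the ACs (15 of 15 retinas). This cluster had 999 CPM of SLC6A9, the glycine transporter gene of glycinergic ACs. Over the 19 AC clusters with at least 100 CPM of SLC6A9 (13634 nuclei), HIF1A was 262 ± 67.2 CPM against 184 ± 39.1 CPM in the other 34 clusters (18167 nuclei), higher in 15 of 15 retinas. VEGFC went the other way, at 15.8 ± 7.13 CPM with and 30.6 ± 9.65 CPM without SLC6A9, lower in 15 of 15 retinas. The cluster of 390 nuclei is among the 19, and the split, chosen after the values were seen, is described without a test. Across the 52 AC clusters of at least 100 nuclei, the correlation of log2 levels of HIF1A and SLC6A9 was r = 0.456, a description over clusters that share the same libraries. Of the HCs, the cluster of 945 nuclei with LHX1 at 49.0 CPM and MEGF11 at 1124 CPM had 339 ± 105 CPM of HIF1A against 187 CPM in the rest, higher in 14 of 15 retinas.

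A cluster of 3872 BC nuclei with ISL1 at 372 CPM, GRM6 at 61.1 CPM and TRPM1 at 592 CPM, the markers of ON BCs, had 114 ± 48.5 CPM of VEGFA against 57.6 CPM in the rest of the BCs (15 of 15 retinas). EGLN3 was at 64.4 ± 32.6 CPM in an AC cluster of 1072 nuclei led by SHISA9li1 and TRHDE against 18.4 CPM in the rest (15 of 15 retinas), and the same cluster had 428 ± 93.5 CPM of HIF1A. A cone cluster of 517 nuclei had KDR at 46.9 ± 26.1 CPM against 5.49 CPM in the other cones (11 of 11 retinas). The same cluster had FLT1 at 25.6 ± 44.4 CPM against 3.13 CPM (9 of 11 retinas). Both receptors were highest in Müller glia, and the part of Müller RNA in this cluster was not tested.

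Whether the members change with age was tested in each class with edgeR's quasi-likelihood test on summed UMIs, with stage and counting version as terms and Benjamini-Hochberg adjustment over all features of the class. The filter on low counts left 9 members in ACs, 8 each in BCs and cones, 7 in RGCs, 6 in Müller glia, 4 in astrocytes, 2 each in HCs and rods and 1 in microglia, and EGLN1 was tested in no class. In the senile against the infant stage 0 of 47 pairs of member and class passed an adjusted p of 0.05, where 1.5% of all 85112 pairs of feature and class did, and 4 had an unadjusted p under 0.05. In mature against infant 0 of 47 passed (0.939% of all pairs, 3 unadjusted), and in senile against mature 0 of 47 (0.0164% of all pairs, 4 unadjusted). DESeq2 called 0 in each comparison too. The smallest adjusted p-values were 0.309, 0.241 and 0.386. The median log2 fold change of the 47 pairs was 0.06 in senile against infant, where the medians of all features ran from -0.03 to 0.01 over the classes. The standard errors were 0.11 to 0.52 (median 0.23). On counts simulated for senile against infant retinas, the same fit recovered 82 to 91% of 4-fold and 29 to 47% of 2-fold changes per class (2025 to 18593 features). These shares are over features of all depths and were not computed for the members. Changes of 2-fold or less may have been missed, more so in pairs with a standard error near 0.52 (EGLN3 in cones) than near 0.11 (EPAS1 in cones).

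The members with an unadjusted p under 0.05 (edgeR) are given as values. Many other features had one too. In senile against infant these were 900 of 8950 in Müller glia, 1081 of 14148 in RGCs, 1729 of 14075 in cones and 228 of 2875 in astrocytes. For mature against infant they were 1568 of 14075 in cones, 2066 of 15332 in BCs and 270 of 2875 in astrocytes. For senile against mature they were 185 of 2875 in astrocytes, 876 of 8950 in Müller glia, 344 of 3095 in rods and 1501 of 14075 in cones. In senile against infant retinas the log2 fold change of KDR in Müller glia was 0.36 ± 0.14 (SE, adjusted p = 0.309), of FLT1 in RGCs 0.60 ± 0.21 (adjusted p = 0.360), of VEGFA in cones 0.57 ± 0.24 (adjusted p = 0.322, and 0.29 ± 0.16 without Senile 3) and of EPAS1 in astrocytes -0.81 ± 0.35 (-0.76 ± 0.30 without Mature 4 and -1.11 ± 0.40 without Infancy 4, Infancy 5 and Mature 4). In mature against infant retinas that of EPAS1 in cones was 0.30 ± 0.11 (adjusted p = 0.241), of VEGFC in BCs -0.70 ± 0.29 (adjusted p = 0.296) and of EPAS1 in astrocytes -0.71 ± 0.33 (-0.54 ± 0.30 without Mature 4 and -0.87 ± 0.38 without the 3 retinas). In senile against mature retinas that of VEGFA in astrocytes was 0.90 ± 0.35 (adjusted p = 0.678, 0.73 ± 0.31 without Mature 4 and 0.68 ± 0.30 without the 3 retinas), of KDR in Müller glia 0.32 ± 0.14 (adjusted p = 0.464), of HIF1A in rods 0.52 ± 0.22 (adjusted p = 0.386) and of EGLN3 in cones 1.15 ± 0.53 (adjusted p = 0.456). The last was called, at 1.08 with an adjusted p of 0.0274, when features with few counts were not filtered out, and was 0.45 ± 0.48 without Senile 3. The senile against infant values of EPAS1 in astrocytes given here all include Senile 2, where no EPAS1 UMI was found in 41 astrocyte nuclei. VEGFC in astrocytes, senile against infant, was -0.58 ± 0.39 with all retinas (edgeR, adjusted p = 0.783). Without Mature 4 it was -0.61 ± 0.20 (unadjusted p = 0.00652, adjusted p = 0.146), and without the 3 retinas -0.37 ± 0.29 (adjusted p = 0.761).

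In sums over whole retinas 0 of 9 detected members passed in any comparison (1.57%, 0.955% and 0.00358% of all features did, edgeR), and 0 had an unadjusted p under 0.05. The log2 fold changes in senile against infant retinas included 0.43 ± 0.22 for EPAS1, 0.35 ± 0.19 for EGLN3, -0.25 ± 0.15 for VEGFC and 0.17 ± 0.23 for VEGFA. DESeq2 called 0 here as well. On simulated whole-retina sums of 27366 features, the fit recovered 66% of 4-fold and 21% of 2-fold changes.

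**Figure D2:**
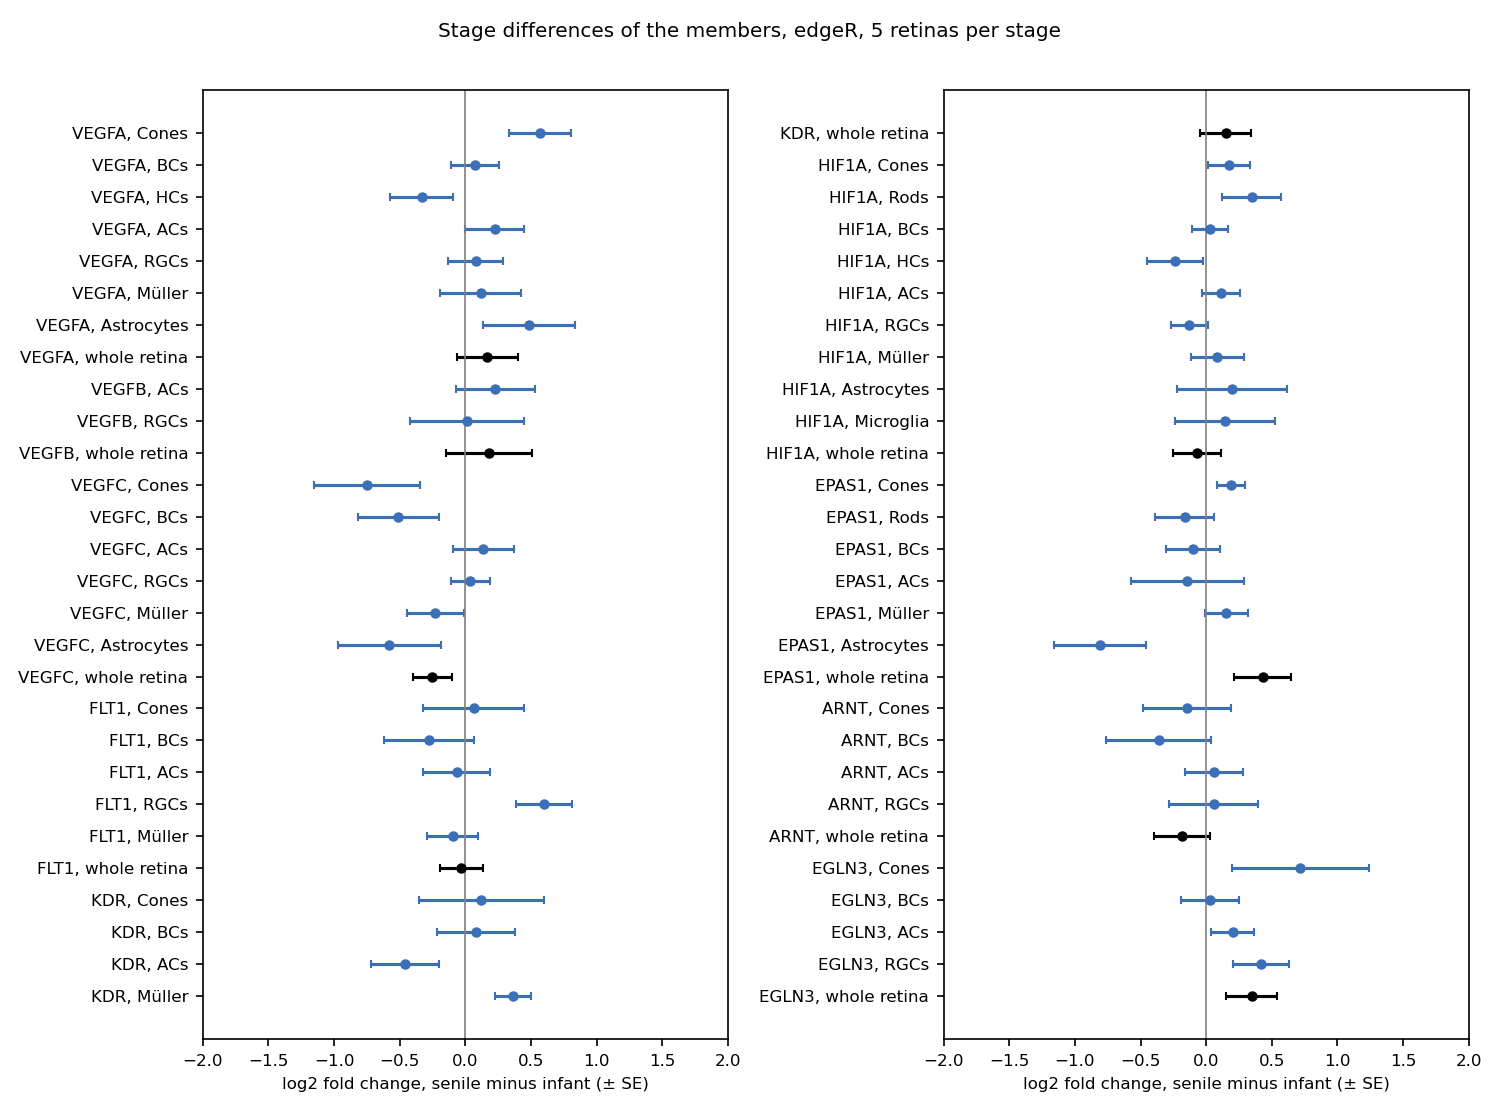
Log2 fold change of senile against infant retinas (x axis) with its standard error for each member and class tested, coloured by class with the whole retina in black. The values scatter around 0, from -0.81 for EPAS1 in astrocytes to 0.60 for FLT1 in RGCs among those with an unadjusted p under 0.05, and none passed the adjusted threshold.

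Other genes of the pathway were taken from 3 lists. Of the other VEGF ligands and receptors (PGF, VEGFD, FLT4, NRP1 and NRP2), 17 pairs of gene and class were tested, and in senile against infant retinas 0 rose and 3 fell (median log2 fold change -0.06), where 1.5% of all pairs of feature and class were called in either direction. In mature against infant 0 passed with edgeR (0.939% of all pairs, median 0.18, 4 with an unadjusted p under 0.05, 1 called by DESeq2), and in senile against mature 0 rose and 1 fell (0.0164% of all pairs, median -0.08). All 4 calls were of neuropilins, the co-receptors that bind VEGF beside KDR. Among the 9 classes both were highest in neurons, with NRP1 at 407 ± 138 CPM in ACs and 365 ± 62.1 CPM in RGCs, and NRP2 at 170 ± 40.2 CPM in RGCs and 156 ± 34.7 CPM in BCs. In the pooled pericyte-like nuclei NRP1 was at 599 CPM (exact Poisson 95% interval 435 to 804, 44 UMIs). VEGFD, a ligand related to VEGFC, was at most 11.1 ± 6.35 CPM (BCs).

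NRP1 fell in Müller glia, the class that held most of KDR. It was 125, 109.5, 87.2, 157 and 239 CPM in Infancy 1 to 5. It was 240.4, 138, 255, 219 and 291 CPM in Mature 1 to 5 and 89.6, 17.4, 73.1, 75.5 and 85.3 CPM in Senile 1 to 5. All senile values lay below all mature values, and 1 senile value lay above the lowest infant one. The log2 fold change was -1.76 ± 0.24 in senile against mature (adjusted p = 0.00421, in a class where 0.0894% of features were called) and -1.22 ± 0.25 in senile against infant (adjusted p = 0.0130, 1.49% called). The second lost its call without Infancy 5 (-1.03), without the version term (-1.12, adjusted p = 0.104) and within the older version (-0.96, adjusted p = 0.331), and the first without the version term (-1.74, adjusted p = 0.0545). In the retinas of one version alone, the senile to mature difference was -1.78 (older) and -1.75 (newer) and did not pass in either. In the Müller sums, markers of cones had medians of 138, 172 and 354 CPM in infant, mature and senile retinas (7 of 9 detected). Markers of astrocytes had 889, 643 and 602 CPM (7 of 7) and markers of ACs 643, 631 and 561 CPM (7 of 8). Markers of RGCs, in which NRP1 is high, had medians of 451, 253 and 352 CPM in the same stages (8 of 9). A cluster nearest to Müller glia by its markers but left unnamed, led by ABI3BP, MECOM and SLC26A4, held 0.508%, 4.54% and 1.78% of the kept nuclei of these stages. The part of either in this result was not tested. With each nucleus gated by its own markers, the log2 fold changes were -1.22 (senile against mature) and -0.74 (senile against infant) and neither was called.

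In cones, where neuropilins were low, NRP2 was 7.23, 21.3, 17.4, 6.24 and 27.8 CPM in Infancy 1 to 5. It was 6.08, 3.88, 8.51, 4.80 and 6.09 CPM in Mature 1 to 5 and 2.26, 1.29, 2.61, 2.11 and 2.05 CPM in Senile 1 to 5. Infant and senile values did not overlap. NRP2 fell by 3.05 ± 0.43 on the log2 scale in senile against infant retinas (adjusted p = 0.000365, 2.39% of features called in cones). NRP1 in cones fell by 1.87 ± 0.43 (adjusted p = 0.0246), from 2.51 to 17.5 CPM in infant to 1.36 to 4.76 CPM in senile retinas. With each nucleus gated by its own markers in place of clusters, the log2 fold changes were -1.27 for NRP2 (not called) and 0.17 for NRP1. Markers of BCs, in which NRP2 is high, summed in cones to 57.5 to 312 CPM in infant, 42.1 to 386 CPM in mature and 47.9 to 123 CPM in senile retinas (8 of 9 detected), with medians of 60.8, 157 and 65.9 CPM. Markers of RGCs, in which both are high, summed to 44.1 to 306 CPM in infant (median 202), 93.2 to 232 CPM in mature and 172 to 294 CPM in senile retinas (median 196). Markers of ACs, in which NRP1 is high, summed to 56.8 to 118 CPM in infant, 48.5 to 128 CPM in mature and 39.5 to 74.0 CPM in senile retinas. A cluster led by SAG, TAFA2 and MORC1 was nearest to cones by its markers but left unnamed. It held 0.759%, 1.04% and 1.77% of the kept nuclei in infant, mature and senile retinas. The part of the BC, RGC and AC markers and of this cluster in the neuropilin values was not tested. The paper lists SAG for short-wave sensitive cones (S-cones) as well as rods, and SAG counted as a rod marker here. Whether this cluster holds S-cones was not tested, and it is not part of the cone class. NRP1 in cones also lost its call without any one of Infancy 1, Infancy 5, Senile 1, Senile 3 or Senile 5 (-1.90 to -1.62), without the version term (-1.76, adjusted p = 0.307) and within the older (-1.41) and the newer version (-2.16). NRP2 in cones was -2.90 within the newer version and did not pass (adjusted p = 0.0703).

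**Figure D3:**
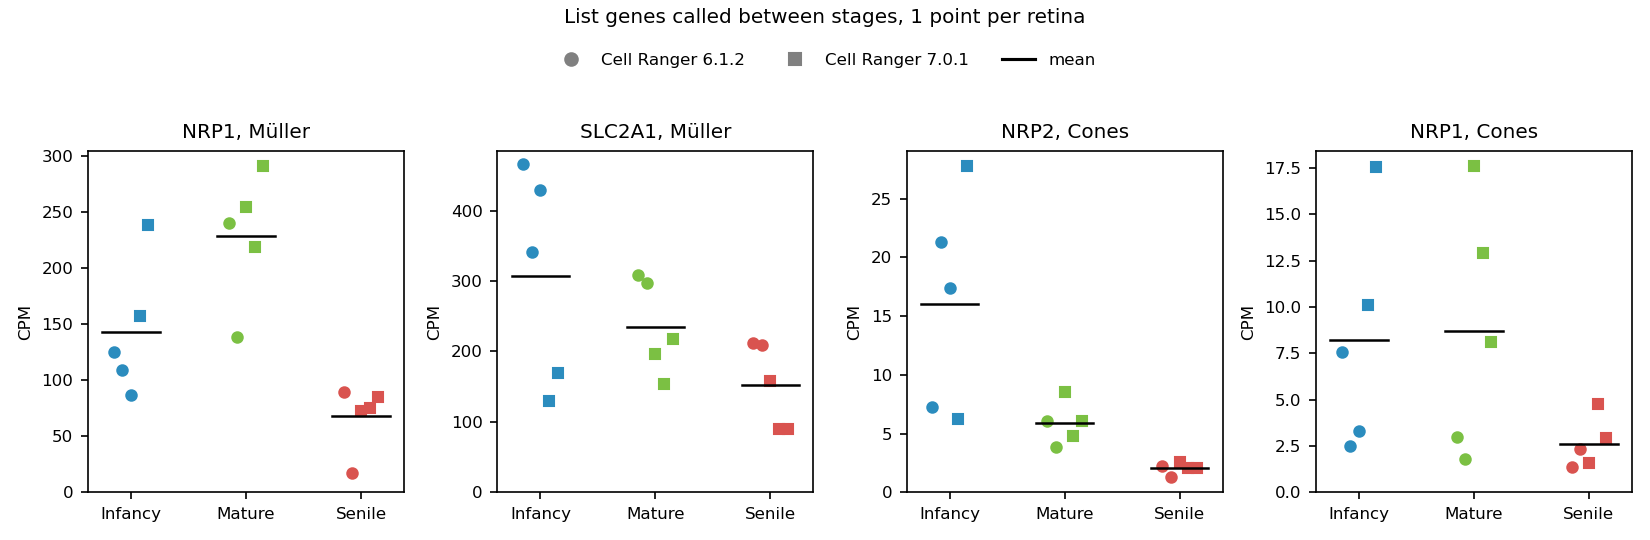
Level in CPM (y axis) of NRP1 and SLC2A1 in Müller glia and of NRP2 and NRP1 in cones by stage (x axis), with 1 point per retina, circles for the older and squares for the newer counting version. In Müller glia every senile NRP1 value (17.4 to 89.6 CPM) lies below every mature one (138 to 291 CPM).

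The list of other oxygen sensing genes (HIF3A, ARNT2, EGLN2, VHL, HIF1AN, CUL2, CITED2, EP300, EPO and EPOR) had 7 of 10 genes with UMIs, and 0 of 40 pairs passed with edgeR in any comparison of stages, where 1.5%, 0.939% and 0.0164% of all pairs did (median log2 fold changes -0.06 in senile against infant, 0.08 in mature against infant and -0.10 in senile against mature, with 7, 2 and 6 pairs at an unadjusted p under 0.05). DESeq2 called 1, 0 and 1, in each case HIF3A in ACs, a HIF alpha subunit with forms that inhibit the others (-1.30 ± 0.34 in senile against infant, adjusted p = 0.0106, where edgeR gave -1.29 ± 0.32 and an adjusted p of 0.0615). The shares of all pairs are those of edgeR, and nothing is read from the number of DESeq2 calls. VHL and CUL2, parts of the ligase that marks hydroxylated HIF alpha for degradation, were widespread: VHL was at 117 CPM in microglia and 42.0 to 58.2 CPM in the other classes, and CUL2 at 84.6 CPM in microglia and at most 55.7 CPM elsewhere. EP300, a HIF coactivator, was at 195 CPM in microglia and 111 to 155 CPM in the others.

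Of the list of 41 common HIF targets, 36 had UMIs, and ENO1, GPI, TPI1, HILPDA and ANGPTL4 are listed at 0. Of 199 pairs, 1 rose and 1 fell in senile against infant retinas (1.5% of all pairs called, median log2 fold change -0.01), 1 rose and 0 fell in mature against infant (0.939% of all pairs, median 0.05), and 0 passed in senile against mature (0.0164% of all pairs, median -0.06, 16 with an unadjusted p under 0.05, 3 called by DESeq2). The gene that rose in both was PFKP, the platelet isoform of phosphofructokinase, in BCs. It was 58.9, 58.2, 66.0, 81.2 and 86.7 CPM in Infancy 1 to 5. It was 124, 96.9, 103, 101 and 106 CPM in Mature 1 to 5 and 103, 113, 110.1, 99.5 and 129 CPM in Senile 1 to 5. All infant values lay below all others, and PFKP rose by 0.59 ± 0.12 in senile (adjusted p = 0.0141, 1.46% of features called in BCs) and by 0.56 ± 0.12 in mature retinas (adjusted p = 0.0258, 1.08% called). Markers of cones, in which PFKP is high, summed in BCs to a median of 143 CPM in infant (95.1 to 251), 199 CPM in mature (126 to 273) and 321 CPM in senile retinas (166 to 521), with 7 of 9 detected, and their part in this result was not tested. The rise in senile retinas lost its call without Senile 5 (0.53), without the filter on low counts (0.50, adjusted p = 0.119) and within the newer version (0.40), and that in mature retinas without any one of 7 retinas (Infancy 1 to 4 and Mature 1, 2 and 5, from 0.44 to 0.60) and within the newer version (0.32).

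The target that fell was SLC2A1, the glucose transporter GLUT1, in Müller glia. It was 466, 341, 429, 130.0 and 169 CPM in Infancy 1 to 5. It was 309, 297, 196, 154 and 218 CPM in Mature 1 to 5 and 213, 209, 157, 89.8 and 90.5 CPM in Senile 1 to 5. Infant and senile values overlapped. SLC2A1 fell by 0.84 ± 0.19 on the log2 scale in senile against infant retinas (adjusted p = 0.0283). The cone and astrocyte markers given for NRP1 moved with stage in the same Müller sums, and their part was not tested. The level of SLC2A1 was 43.3 CPM in cones and 30.9 CPM in astrocytes. The call was lost in 11 of 25 alternatives, among them leaving out any one of Infancy 1, 3 or 5 or Senile 1, 2, 4 or 5 (-0.88 to -0.75). The difference was -1.06 within the older version (adjusted p = 0.0108) and -0.49 within the newer (adjusted p = 0.703), and the call was also lost without the version term (-1.16, adjusted p = 0.209) and with gated nuclei (-0.91, adjusted p = 0.0976). By level, PFKP was highest in HCs (350.5 CPM) and cones (249 CPM), P4HA1, a collagen prolyl hydroxylase, in microglia (268 CPM), Müller glia (252 CPM) and astrocytes (230 CPM), and KDM4C, a histone demethylase, at 225 to 340 CPM in every class with its highest value in cones.

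The features whose level was most like that of each member were found by Pearson correlation of log2(CPM + 1) over the 134 sums of a retina and class, among 10320 features. The sums share libraries, depth and class, so r is a description. KDR was most like LINC-SPTLC3-2 (0.830), RHBDL3 (0.821) and the Müller marker WIF1 (0.806). FLT1 was most like TOX2 (0.795) and CD109 (0.768), VEGFC like SMOX (0.884), PDE7B (0.870) and ABCA9 (0.866), and VEGFA like AOPEP (0.737), CERS1 (0.729) and MET (0.717). HIF1A was most like PLEKHA5liN (0.786), SEPTIN7 (0.782) and LUC7L3 (0.742), EPAS1 like its own antisense feature EPAS1-AS-3 (0.900), DENND1A (0.843) and ILDR2 (0.839), and EGLN3 like ERICH3 (0.588), STRBP (0.555) and RALGAPA2-AS-2 (0.536). Between members, r was 0.570 for FLT1 and KDR, 0.561 for VEGFC and FLT1, -0.314 for HIF1A and EPAS1 and -0.449 for EPAS1 and EGLN3.

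Antisense features overlapped several members, and since the counting may split reads between them, the levels of these members are uncertain. VEGFC had 2 antisense features with 23023 UMIs together, more than VEGFC itself. VEGFC-AS-1 was highest in cones, at 93.5 ± 53.1 CPM, a class in which VEGFC was at 3.55 CPM. HIF1A-AS-1, with 27113 UMIs, was at 91.8 CPM in HCs, 85.2 CPM in BCs, 80.5 CPM in RGCs and 6.03 CPM in cones. EPAS1-AS-3 was at 66.4 CPM in rods, 49.4 CPM in astrocytes, 43.4 CPM in cones and 37.3 CPM in Müller glia, the classes with the highest EPAS1, and 4.77 CPM in BCs. FLT1 and KDR had 128 and 302 antisense UMIs.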

How the data were processed

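Nuclei of 15 TS retinas, 5 per stage, had been profiled with 10x Genomics 3′ libraries. Cell Ranger had mapped the reads to genome TS_3.0, and the matrices deposited by the authors hold raw UMI counts per feature and barcode, with no normalization. The file headers name version 6.1.2 or 7.0.1, and the submitters' processing notes name 5.0.1 and 7.0.1. Whether intronic reads were counted is not given in the sources used here. The members and the gene lists were chosen with earlier results of these data known. The genes named are all 10 members and 3 lists (other VEGF ligands and receptors, other oxygen sensing genes, common HIF targets). From a list, the text names genes past an adjusted p of 0.05 in a class (at most 5 up and 5 down per comparison) and the 3 with the highest mean CPM over classes, and for each member the 3 most alike features, except items that are not reported here. Other genes and clusters named were chosen after their values were seen.

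A barcode passed with over 200 genes, below 6000 genes and a mitochondrial share below 5% (119765 barcodes), and 7940 called doublets were removed. Nuclei were clustered in Python 3.11.15 with igraph 0.11.9, scipy 1.17.1, numpy 2.4.6 and pandas 2.3.3, on 2000 variable features and 30 principal components, with 20 neighbours and Leiden resolution 3. A cluster was named from at least 3 markers of a fixed list at 20 CPM or more. Each marker also had to reach 3 times its median level in the other classes and 0.1 of the level in its own class. Clusters stayed unnamed with a marker score under 0.45 of the highest of the class or with 25% or more called doublets. The same held where markers or leading genes of another class stood out. These thresholds were chosen with the clusters in view, and 21940 nuclei stayed unnamed. Gating single nuclei by markers gave the same class for 95.0% of 80508 nuclei named both ways. Raw UMIs were summed per retina and class, with at least 10 nuclei.

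Stages were compared with edgeR 4.0.16 (quasi-likelihood test, TMM, filterByExpr, R 4.3.3), with stage and Cell Ranger version as terms, and with DESeq2 1.42.0 as an alternative. All shares of features or pairs called are those of edgeR, and the shares called by DESeq2 are not given. The fit was checked on simulated counts with the means and library sizes of these sums. Classes were compared with 2-sided exact sign-flip permutation tests of log2(CPM + 1), a pseudocount of 1 CPM. Intervals of pooled counts are exact Poisson and cover counting error only. Sex and age were not used, as the labels of single samples do not give them. Alternatives were other filters, normalizations, version terms and subsets, gating, and leaving out each retina.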

Additional observations from a re-analysis of the deposited data

Results flagged for a closer look

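In groups of 5 retinas, a retina is listed here when its gap to the nearest other value was more than 0.71 of the group's range (Dixon's test). This held in 2 of 53 groups, where chance gives about 1 in 20. VEGFB over all kept nuclei was 6.63 CPM in Senile 2 and 1.83 to 2.25 CPM in the other senile retinas. HIF1A in HCs was 483 CPM in Mature 5 and 228 to 271 CPM in the other mature retinas.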

How the results depend on the processing

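The same direction and side of the threshold held for most results. In the tests of stage within classes, 0 members were called under the other alternatives, and 1 (EGLN3 in cones, senile against mature) without the filter on low counts. Of the 72 comparisons of neighbouring classes, 20 passed, against 33 with each nucleus gated by its markers, 12 in the 8 retinas of the newer counting version, and 0 in the 7 of the older one, where the smallest p that the test can give is 0.0156. Leaving out 1 retina gave 19 to 22, with 19 without Mature 4. Without Infancy 4, Infancy 5 and Mature 4, left out together after seeing the data, 13 passed, and HCs over BCs in HIF1A (0.28) was not among them. With 1 retina left out, the log2 differences ranged from 2.14 to 2.36 for VEGFA (astrocytes over HCs), 3.28 to 3.44 for FLT1, 4.60 to 5.09 for KDR (Müller glia over the next class), 0.26 to 0.35 for HIF1A (HCs over BCs) and 0.54 to 0.64 for EPAS1 (rods over cones). With gated nuclei those of VEGFA and EPAS1 were smaller, at 0.51 and 0.31.

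Some results changed sign, and the cause was not tested. VEGFC in astrocytes over Müller glia, 0.08 with clusters, was -1.30 with gated nuclei, past the threshold (adjusted p = 0.000488). Without Infancy 4, Infancy 5 and Mature 4, the senile minus mature log2 fold changes in astrocytes were -0.30 for VEGFC and 0.27 for HIF1A, not past the threshold. VEGFB in RGCs over ACs was -0.032 in the older version. EGLN3 in RGCs over ACs was -0.013 in the newer version and -0.055 to 0.086 with 1 retina left out. NRP1 in cones, senile minus infant, called at -1.87, was 0.17 with gated nuclei. The share of endothelial-like nuclei, senile minus infant, was -0.00128 percentage points of all kept nuclei, -0.0418 in the older version and -0.0175 to 0.0324 with 1 retina left out, lowest without Senile 3. Mature minus infant was 0.0120 in the newer version, and senile minus mature was -0.00332 to 0.0539 with 1 retina left out, lowest without Senile 3.

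A pairing by replicate number and the counting version cannot be told apart. Of 15 pairs with the same number, 13 had deviations correlated over 0.1 (-0.437 to 0.614, median 0.418). The median over the other 60 pairs was -0.241. Pairs of the same counting version had the same median of 0.418, and most pairs with the same number share a version. With the replicate number as a block, 0 members were called in every comparison. Of the listed genes, the block left NRP1 in cones at -1.63 (adjusted p = 0.239) and PFKP in BCs, mature against infant, at 0.58 (adjusted p = 0.0534). The test of whether stage effects differ between classes was not run, since no member was called. Depth limits the classes with few nuclei: 1 member could be tested in microglia and 2 each in HCs and rods.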

Other observations

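The log2 fold change of NRP1 in ACs was -0.55 ± 0.15 (SE) in senile against mature retinas with DESeq2 (adjusted p = 0.0419) and -0.56 ± 0.13 with edgeR (adjusted p = 0.214). SLC2A1 in endothelial-like nuclei was 1194 CPM (exact Poisson 95% interval 986 to 1434, 115 UMIs), above its level in Müller glia of any retina. These genes were named after their values were seen.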
